A study of Mus musculus with 8 samples.

Results

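The transcription factor gene Atf4, 4 of its known target genes (Fgf21, Trib3, Chac1 and Asns) and the 5 enzyme genes of serine and glycine synthesis (Phgdh, Psat1, Psph, Shmt2 and Mthfd2) were followed across all libraries of a study of TGF-β and RGC-32 in mouse astrocytes. The grouping does not mean that the enzyme genes are no targets of ATF4. The members were taken by name from the table of raw counts, which held all 10 among its 13937 genes, and all 10 also passed the filter on low counts that left 13509 genes tested. The members were chosen by name with the measured TGF-β fold changes of these same libraries known. Their fold changes after TGF-β are therefore a description and carry no p-value, while the comparisons between genotypes and of the response between genotypes were tested, with earlier results of these data likewise known. Primary astrocytes were grown from the brains of C57BL/6 pups at post-natal day 1, either wild type (WT) or carrying a knockout of RGC-32 (RGC-32 KO, or KO), the cell cycle and TGF-β response protein encoded by Rgcc. All cultures had been kept without serum overnight. Cells then stayed untreated or received 10 ng/ml of TGF-β over 24 h, so that each genotype has a control and a TGF-β group, of 2 biological replicates each. The knockout is carried by the whole animal and its cultured cells, and how many pups went into a culture is not given in the sources used here.

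ATF4 stands at the end of the integrated stress response. Kinases that sense amino acid shortage, unfolded protein in the endoplasmic reticulum, viral RNA or heme shortage phosphorylate the initiation factor eIF2, general translation drops, and the Atf4 transcript is translated more. The protein then pairs with C/EBP factors on composite promoter sites and switches on genes for amino acid uptake, amino acid synthesis and tRNA charging, and its control is therefore largely beyond what transcript levels record. Serine is made from a glycolytic intermediate by PHGDH, PSAT1 and PSPH in turn, and SHMT2 and MTHFD2 in the mitochondrion then split it into glycine and pass its carbon to folate. Astrocytes are known as a source of serine for neurons.

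Counts on genes ran from 14920561 to 18956038 per library. The targeted gene Rgcc had 80 and 94 counts in WT control, 215 and 362 in WT TGF-β, 61 and 28 in KO control and 64 and 26 in KO TGF-β, so every KO library lay below every WT library and none was at 0. Of the astrocyte markers, 8 of 8 were detected, and they summed to between 3180 and 5410 CPM per library, where CPM (counts on a gene relative to the library total after TMM scaling) is the unit of level throughout. TMM is a scaling that assumes that most genes do not differ between libraries. The astrocyte marker sum was lower after TGF-β in both genotypes, 4030 to 4270 CPM in WT control against 3180 to 3310 in WT TGF-β, and 4710 to 5410 in KO control against 3960 to 4280 in KO TGF-β. Not every marker followed the sum, and 1 of 8 had a positive log2 fold change in WT and 2 of 8 in KO. Gja1 was higher, by 0.35 in WT and 0.33 in KO, and S100b had -0.14 and 0.08. Of the meningeal fibroblast markers, 6 of 6 were in the table and the sum was 3400 to 4060 CPM in WT control, 7300 to 8390 in WT TGF-β, 2580 to 2800 in KO control and 5350 to 5490 in KO TGF-β, nearly all of it from the collagen genes Col1a1 and Col1a2, which TGF-β is known to induce in many cells. The other defining genes did not rise with the collagens. Dcn was at 306 and 332 CPM in WT control, 214 and 202 in WT TGF-β, 280 and 263 in KO control and 232 and 193 in KO TGF-β. Its log2 fold changes after TGF-β were -0.62 in WT and -0.36 in KO. Those of Foxc1, at 94.5 to 164 CPM, were -0.42 and -0.29, and those of Lum, at 2.75 to 5.07 CPM, -0.32 and -0.17. Slc6a13 did not exceed 1.28 CPM in any library. The microglia markers, 6 of 6, summed to 642 to 861 CPM over all libraries, the neuron markers to 80.2 to 113 (2 of 5 in the table) and the proliferation markers to 317 to 408 (8 of 8). The oligodendrocyte lineage sum, 5 of 6 without Mog, was 52.4 to 67.7 CPM in the control and 181 to 323 in the TGF-β libraries, mostly from Cspg4, and the endothelial sum, 3 of 4 without Cldn5, was 63.2 to 91.5 and 36.2 to 50. Of the 5 oligodendrocyte lineage genes, 3 had a positive log2 fold change in WT and 2 in KO. Pdgfra was lower, with -0.98 in WT and -0.71 in KO. The part of other cell types in the values below was not tested, and in bulk RNA a change in the number of cells of a type and a change in RNA per cell cannot be told apart.

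Atf4 itself had the highest level per length of the 10 genes, with length taken over all annotated exons of a gene. By mean CPM, Psat1 stood above Atf4 in WT control (131 against 120) and in KO control (137 against 111). Atf4 (chr15:80255184-80257541, plus strand) was at 132 and 107 CPM in WT control, 154 and 178 in WT TGF-β, 120 and 102 in KO control and 149 and 161 in KO TGF-β. Both TGF-β libraries lay above both control libraries in each genotype, by a log2 fold change of 0.47 (SE 0.12, n = 2 against 2) in WT and 0.48 (SE 0.12) in KO, which is about 1.39-fold and 1.4-fold. These differences were under the fold limit of the study, an absolute log2 fold change of 0.6. Without WT control replicate 1 the value in WT was 0.63 and past that limit.

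Divided by the exon length of each gene, so that genes can be compared, WT control levels were 50.7 ± 7.46 CPM per kb for Atf4 (SD, n = 2), 33.8 ± 0.0319 for Phgdh, 30.8 ± 2.03 for Psat1, 13.8 ± 0.432 for Shmt2 and 10.0 ± 0.789 for Asns. Psph at 5.15 ± 0.346 and Mthfd2 at 5.03 ± 0.388 CPM per kb differed by less than the sum of their SD. The same held for Chac1 at 2.16 ± 0.0963 and Trib3 at 1.76 ± 0.385 CPM per kb, and Fgf21 was lowest at 0.334 ± 0.295. In these unstimulated cells Phgdh and Psat1, the serine enzymes of the first steps, stood above Asns, Chac1, Trib3 and Fgf21. After TGF-β in WT, Psat1 at 20.1 ± 1.21, Asns at 18.9 ± 3.01 and Shmt2 at 17.8 ± 1.34 CPM per kb could not be separated by that measure, and Fgf21 at 5.93 ± 1.89 had come level with Psph at 4.75 ± 0.142. Atf4 at 70.4 ± 7.09 and Phgdh at 33.3 ± 2.33 CPM per kb remained the highest of the 10, and in KO TGF-β they stood at 65.7 ± 3.61 and 36.2 ± 5.24.

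Among the target genes, Fgf21 (chr7:45613886-45615490, minus strand) encodes a secreted hormone of the fasting and stress response. It had 8 and 2 counts in WT control, 79 and 108 in WT TGF-β, 8 and 0 in KO control and 57 and 69 in KO TGF-β. All TGF-β libraries stood above all control libraries, and within each control group the replicate 1 library held most or all of the counts. Its fitted log2 fold change, 4.14 (SE 0.66) in WT and 4.05 (SE 0.72) in KO, rests on these few control counts. Without WT control replicate 1 it was 5.46 in WT, and without KO control replicate 1, which leaves a control library with 0 counts, no fold is given.

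Trib3, a pseudokinase that is induced by ATF4 and restrains it, was at 4.32 and 3.16 CPM in WT control, 6.03 and 8.18 in WT TGF-β, 4.47 and 3.26 in KO control and 6.16 and 4.89 in KO TGF-β. The groups did not overlap in either genotype, but in KO the lower TGF-β library stood only just above the higher control library. On the log2 scale it was higher by 0.92 (SE 0.25) in WT and by 0.52 (SE 0.26) in KO. Chac1 encodes an enzyme that breaks down glutathione. It was at 3.42 and 3.64 CPM in WT control, 6.03 and 7.1 in WT TGF-β, 3.83 and 2.96 in KO control and 4.96 and 5.28 in KO TGF-β, with log2 fold changes of 0.89 (SE 0.18) and 0.60 (SE 0.19), the latter just under the fold limit before rounding.

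Asns (chr6:7675169-7693254, minus strand), the enzyme that makes asparagine, was at 29.0 and 25.9 CPM in WT control, 45.8 and 57.4 in WT TGF-β, 25.9 and 24.5 in KO control and 43.5 and 42.1 in KO TGF-β. Every TGF-β library exceeded every control library by a wide margin, with log2 fold changes of 0.91 (SE 0.11) in WT and 0.76 (SE 0.11) in KO. Asns had the smallest SE relative to its rise among the 4 targets.

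**Figure D1:**
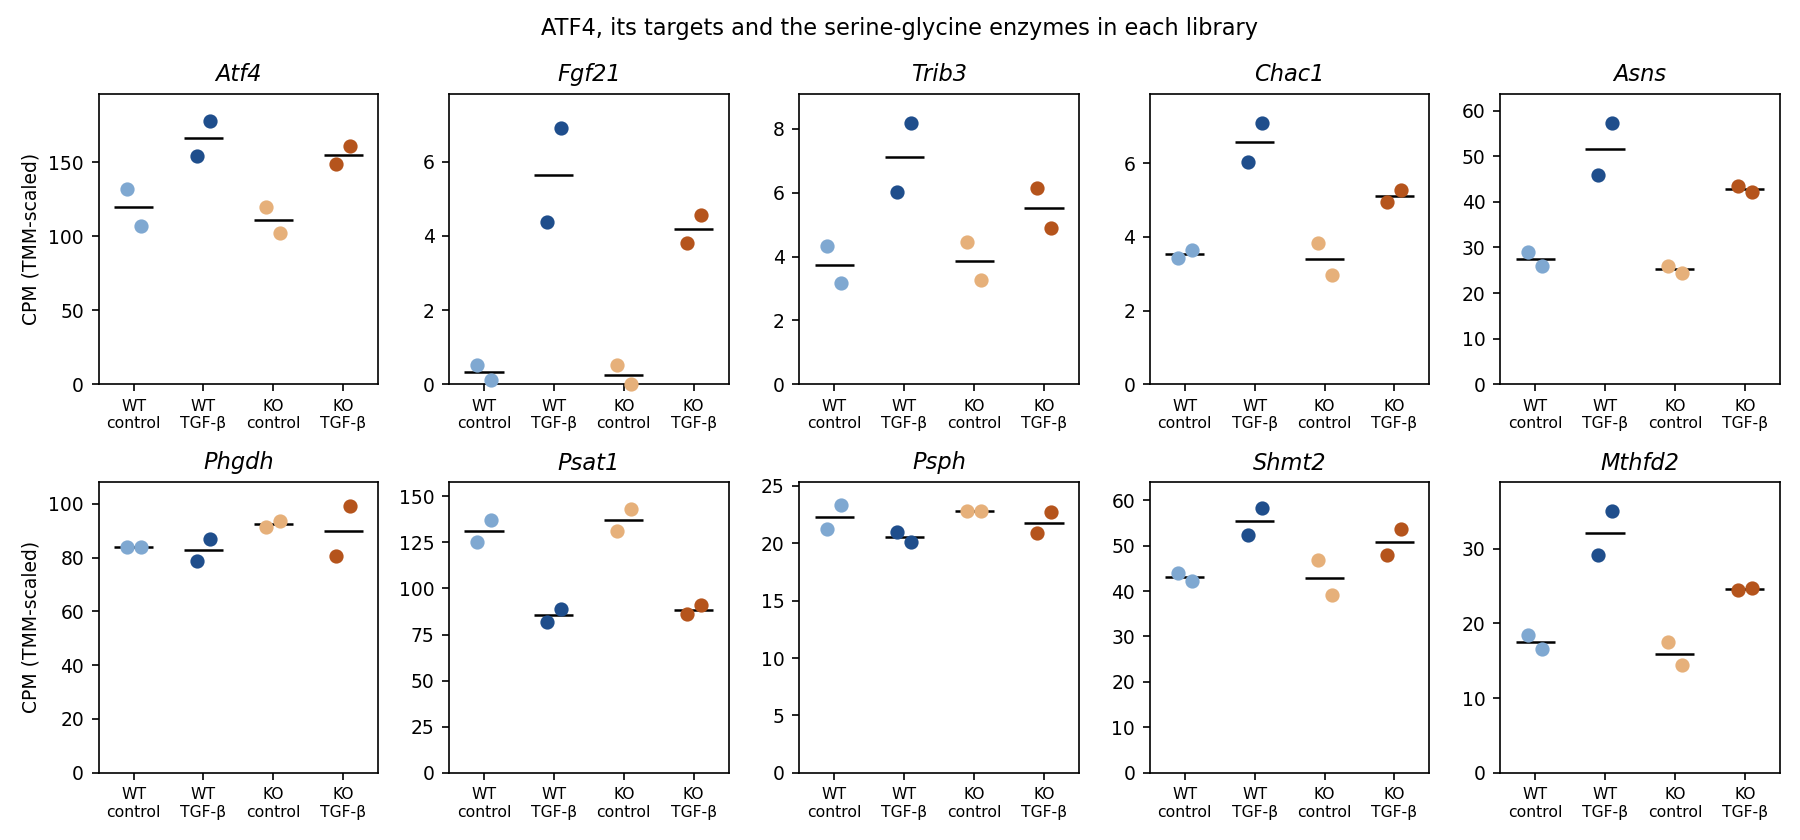
Level of each of the 10 genes in every library as CPM (y axis, from 0, its own scale in each panel) in the 4 groups (x axis), with 1 point per library and a line at the group mean. Fgf21, Trib3, Chac1, Asns and Mthfd2 are higher in both TGF-β groups, Psat1 is lower (81.7 to 91 CPM against 125 to 143), and Phgdh overlaps between control and TGF-β in both genotypes.

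The serine pathway did not move as a whole. Phgdh, which catalyses the committed step, was at 84.1 and 84.0 CPM in WT control, 78.8 and 87.0 in WT TGF-β, 91.3 and 93.8 in KO control and 80.7 and 99.1 in KO TGF-β. Control and TGF-β libraries overlapped in both genotypes, and the log2 fold changes were -0.02 (SE 0.10, 95% interval -0.24 to 0.20) and -0.04 (SE 0.10, 95% interval -0.26 to 0.18). A processed pseudogene, Phgdh-ps1, is annotated, and how reads shared with it were counted is not given in the sources used here. Psat1 (chr19:15904678-15947337, minus strand), the transaminase of the following step, was at 125 and 137 CPM in WT control, 81.7 and 89.0 in WT TGF-β, 131 and 143 in KO control and 86.0 and 91.0 in KO TGF-β. It was thus lower in all TGF-β libraries, at 0.652 times the control level in WT (log2 fold change -0.62, SE 0.08) and 0.645 times in KO (-0.63, SE 0.08). Its direction was opposite to that of Asns, Fgf21, Trib3 and Chac1. Psph, the phosphatase of the last step, was at 21.2 and 23.3 CPM in WT control and 21.0 and 20.1 in WT TGF-β, and at 22.8 in each KO control library against 20.9 and 22.7 in KO TGF-β, with log2 fold changes of -0.11 (SE 0.08) and -0.07 (SE 0.09). Exons of Psph overlap those of Cct6a on the opposite strand over 452 of 4329 bases, and because the libraries are unstranded, reads there cannot be told apart. Cct6a was at 169 to 207 CPM over the 8 libraries, well above Psph.

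Beyond serine lie the mitochondrial enzymes. Shmt2, which converts serine to glycine, was at 44.0 and 42.1 CPM in WT control, 52.4 and 58.3 in WT TGF-β, 46.8 and 39.1 in KO control and 48.0 and 53.6 in KO TGF-β, with log2 fold changes of 0.36 (SE 0.10) and 0.24 (SE 0.10), both under the fold limit. Its exons share 32 of 3109 bases with Ndufa4l2 on the opposite strand. Mthfd2 (chr6:83305691-83325908, minus strand), the folate dehydrogenase that takes up the carbon SHMT2 releases, was at 18.5 and 16.6 CPM in WT control, 29.2 and 35.0 in WT TGF-β, 17.5 and 14.4 in KO control and 24.4 and 24.7 in KO TGF-β. Here the groups stood well apart, with log2 fold changes of 0.87 (SE 0.12) in WT and 0.62 (SE 0.13) in KO. Mthfd2 was thus past the fold limit upwards and Psat1 past it downwards.

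A gene counted as past the threshold when its log2 fold change reached 0.6 in either direction with a Benjamini-Hochberg adjusted p under 0.05 in edgeR's quasi-likelihood test over all 13509 genes. In WT, Fgf21, Trib3, Chac1, Asns and Mthfd2 were past it upwards, 5 of 10, and Psat1 downwards, 1 of 10, where 7.72% of all genes tested were past it upwards and 5.65% downwards. In KO, Fgf21, Asns and Mthfd2 were past it upwards, 3 of 10, and Psat1 downwards, 1 of 10, against 6.61% and 4.93% of all genes tested. Since the choice of the members used these contrasts, nothing is read from the counts. The median over the 10 genes was 0.67 on the log2 scale for WT and 0.50 for KO, where the median of all genes was 0. The groups did not overlap for 7 genes upwards and 2 downwards in each genotype, and this was so for 35.4% and 33.7% of all genes in WT and 34.3% and 32.9% in KO. Leaving out WT TGF-β replicate 2 took the upward count of WT to 3, where Trib3 (log2 fold change 0.67) and Chac1 (0.75) dropped out, and Trib3 also dropped out without WT control replicate 2 (0.69). Psat1 dropped out in WT without WT control replicate 2 (-0.57) or WT TGF-β replicate 1 (-0.55), and in KO without KO control replicate 2 (-0.57) or KO TGF-β replicate 1 (-0.59). Leaving out KO control replicate 2 (0.48) or KO TGF-β replicate 2 (0.59) removed Mthfd2 in KO and left 2 genes upwards.

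The comparisons between genotypes asked whether the set depends on RGC-32. Without TGF-β, none of the 10 genes differed past the threshold between KO and WT in edgeR, the smallest adjusted p was 0.821, and 0 of 10 had an unadjusted p under 0.05, against 6.84% of all genes tested. With DESeq2 and limma-voom the count past the threshold was likewise 0. Of all genes tested, 0.037% were past it in edgeR. After TGF-β, 7 of 10 were lower in KO, while of all 13509 genes tested 6767 were higher in KO and the rest were not. Again 0 of 10 were past the threshold (0.0444% of all genes), and 2 of 10 had an unadjusted p under 0.05, against 11.7% of all genes tested. These were Mthfd2, 24.4 and 24.7 CPM in KO TGF-β against 29.2 and 35.0 in WT TGF-β, with a log2 difference of -0.39 (SE 0.12, 95% interval -0.67 to -0.10, adjusted p = 0.297), and Asns, with a log2 difference of -0.27 (SE 0.11, 95% interval -0.52 to -0.02, adjusted p = 0.4). Chac1 differed by -0.35 (SE 0.17, 95% interval -0.75 to 0.05, adjusted p = 0.479). For these 3 genes every KO TGF-β library was below every WT TGF-β library, as for 22.4% of all genes tested, and none of the differences held after adjustment.

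A difference in response was tested by the interaction, the response in KO minus that in WT. No gene of the whole table was past the threshold in edgeR, DESeq2 or limma-voom, and 2.82% of all genes tested had an unadjusted p under 0.05, against 0 of the 10. The interaction was -0.40 for Trib3 (95% interval -1.23 to 0.43, adjusted p = 1), -0.29 for Chac1 (-0.89 to 0.31, adjusted p = 1), -0.25 for Mthfd2 (-0.66 to 0.16, adjusted p = 1) and -0.15 for Asns (-0.52 to 0.22, adjusted p = 1). For Atf4 it was 0.01 (-0.39 to 0.41), for Psat1 -0.02 (-0.26 to 0.23) and for Psph 0.05 (-0.23 to 0.33), again with an adjusted p of 1. With 2 libraries a group these intervals leave room for differences in response of about the size of the responses of Trib3, Chac1 and Mthfd2 themselves. Fgf21 could not be judged, with an interaction of -0.09 and an interval from -3.31 to 3.12. That Trib3 and Chac1 were past the threshold in WT and not in KO is thus no tested difference between genotypes, and Chac1 was past it in KO with limma-voom (0.61) and without KO control replicate 1 (0.77).

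**Figure D2:**
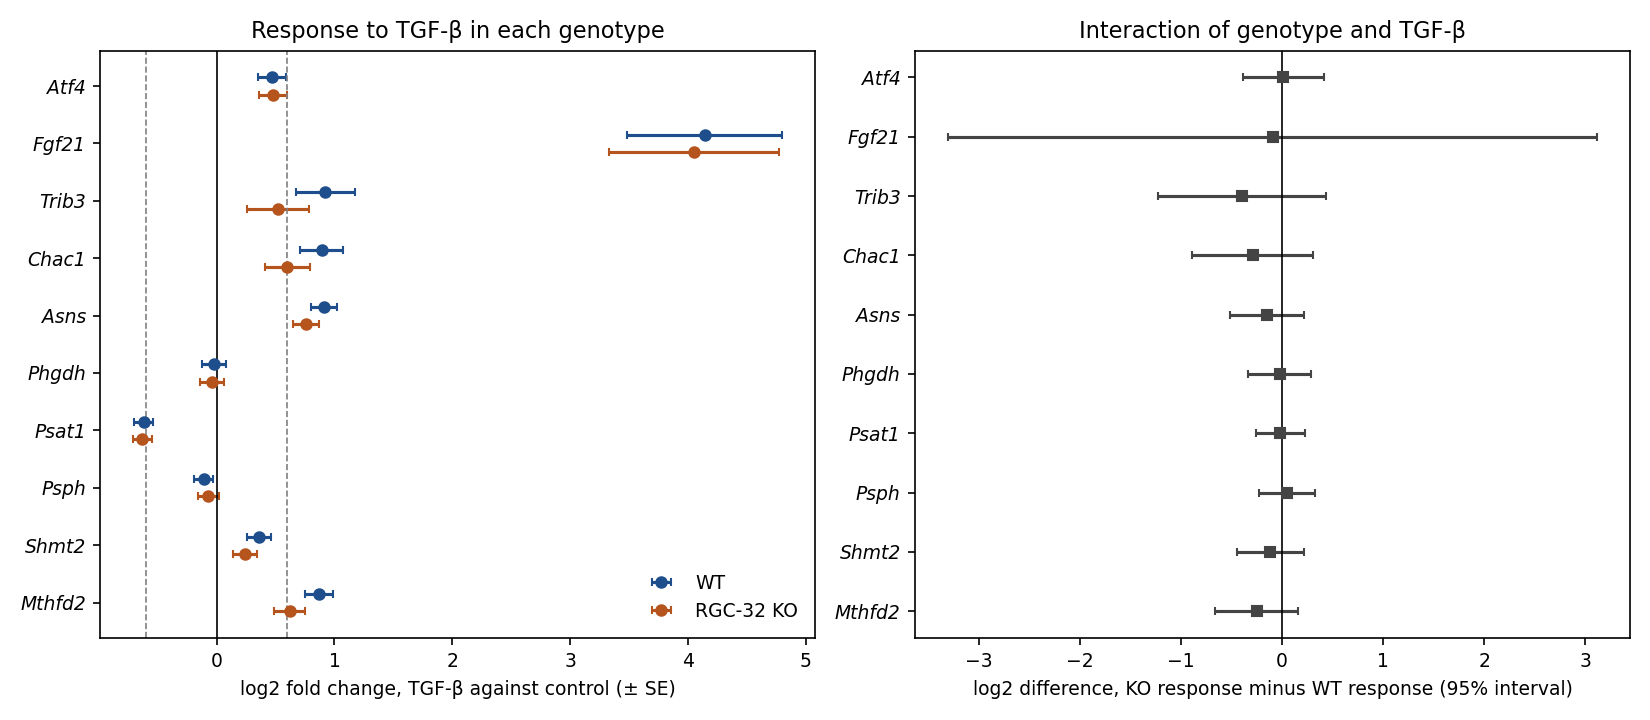
Left, log2 fold change of each gene after TGF-β (x axis) with its SE in WT and KO, with dashed lines at the fold limit of 0.6 in each direction. Right, the interaction (KO response minus WT response, log2) with its 95% interval. The interval of each of the 10 genes crosses 0, and that of Fgf21 spans -3.31 to 3.12.

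The promoters of the set were read for the composite C/EBP-ATF site, because ATF4 acts through it. The motif searched was TGATGNAA on both strands, in windows of 300 bases from 250 before to 50 after each RefSeq start (GRCm38.p6), and all 10 genes had a window. It was found for Fgf21, Chac1, Trib3 and Asns, 4 of 10, and in no window of Atf4 or of the serine and glycine enzymes. Of 27025 genes with a window, 4.51% held it. The windows of the 4 target genes are shown with the motif in capitals, 5′ to 3′ on the strand that carries it, each as a stretch of 30 bases.
Fgf21: gcctggacggaTGATGCAAtgggggggtct
Chac1: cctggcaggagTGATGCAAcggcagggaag
Trib3: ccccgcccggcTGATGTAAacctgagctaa
Asns: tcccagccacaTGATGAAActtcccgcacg
They lie at chr7:45615611-45615640 (plus strand) for Fgf21, chr2:119351038-119351067 (minus) for Chac1, chr2:152344028-152344057 (plus) for Trib3 and chr6:7693214-7693243 (minus) for Asns. From the RefSeq start, the motif lies 139 bases upstream in Fgf21, 193 in Chac1 and 23 in Asns, and 14 bases downstream in Trib3. GENCODE, from which gene positions are given, has other starts for Asns and Trib3. By it the Asns motif lies inside the gene (chr6:7675169-7693254, minus strand). The Trib3 motif lies before the start of the gene (chr2:152337422-152344032, minus strand). With C required at the free base, the motif was left in Fgf21 and Chac1, 2 of 10, and in 1.03% of all genes with a window. The 4 genes with the motif were higher after TGF-β in both genotypes, and so were Atf4, Shmt2 and Mthfd2, whose windows lack these letters. A match is a description of sequence and not evidence of binding.

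Of 20 other known ATF4 targets on a list, 18 were tested. This list and the pathway lists below were drawn up with earlier results of these data known. Their shares and adjusted p-values after TGF-β are therefore read as description. Nupr1, Cth and Atf3 were past the threshold, 2 upwards and 1 downwards in each genotype. That is near the share of all genes tested, 7.72% upwards and 5.65% downwards in WT and 6.61% and 4.93% in KO, and the list's median fold change on the log2 scale was 0.05 for WT and -0.05 for KO. Nupr1, a stress-induced chromatin protein, was at 67.8 and 76.2 CPM in WT control, 249 and 341 in WT TGF-β, 70.0 and 59.4 in KO control and 279 and 237 in KO TGF-β. It rose by 2.03 on the log2 scale in WT (SE 0.16, adjusted p = 0.00021) and 2.00 in KO (adjusted p = 0.000279). Cth, which makes cysteine from cystathionine, rose by 1.05 (adjusted p = 0.000593) and 0.92 (adjusted p = 0.00134). Atf3, a stress-induced transcription factor, went the other way, from 41.6 and 26.2 CPM in WT control to 20.3 and 18.9 in WT TGF-β, with log2 fold changes of -0.79 (SE 0.19, adjusted p = 0.0172) and, for KO, -0.70 (adjusted p = 0.0296). The call of Atf3 was lost without any of the 4 KO libraries (adjusted p 0.072 to 0.139) and in WT without either TGF-β library (0.0581 and 0.0865) or without WT control replicate 1 (log2 fold change -0.42). Ddit3, the CHOP gene and the best known transcriptional sign of a strong stress response, was named after its values were seen. It had log2 fold changes of -0.20 (adjusted p = 0.181) and -0.10 (adjusted p = 0.528), with 27.6 to 35.5 CPM in all libraries.

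In the promoter windows of these other targets the same motif occurred in 5 of 18, those of Atf3, Jdp2, Nupr1, Pck2 and Vldlr. Of all genes with a window, 4.51% held it. In the lists described below it was in 5 of 9 windows for tRNA charging and 2 of 6 for transporters. It was in 1 of 5 for proline, 1 of 9 for chaperones and 0 of 11 for folate and glycine. The eIF2 list had 0 of 6 and the FGF21 receptors 0 of 3. Of the other targets with the motif, Nupr1 and Atf3 were past the threshold, and their windows are shown. They were picked after the values were seen, and binding was not tested.
Nupr1: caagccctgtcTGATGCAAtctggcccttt
Atf3: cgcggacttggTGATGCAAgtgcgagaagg
They lie at chr7:126625562-126625591 and chr1:191183425-191183454, both on the plus strand, with the motif 110 bases upstream of a RefSeq start in both genes. By GENCODE both windows lie inside the gene, at chr7:126623249-126630861 for Nupr1 and chr1:191170296-191218039 for Atf3. Jdp2, Pck2 and Vldlr had log2 fold changes between -0.12 and 0.17 and were not past the threshold in either genotype.

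Amino acid transporters were the list with the largest share past the threshold. Of 10 tested, 4 were past it upwards and 1 downwards in each genotype, where 7.72% and 5.65% of all genes were in WT and 6.61% and 4.93% in KO, and their median was 0.33 for WT and 0.26 for KO on the log2 scale. Slc7a5, the large neutral amino acid carrier, was at 61.5 and 52.4 CPM in WT control, 111 and 166 in WT TGF-β, 64.5 and 46.3 in KO control and 96.6 and 126 in KO TGF-β, a rise of 1.29 (SE 0.23, adjusted p = 0.00473) and 1.01 (adjusted p = 0.0148) on the log2 scale. Slc1a4, the neutral amino acid carrier that moves serine, rose by 1.15 (SE 0.08, adjusted p = 0.000122) and 1.21 (adjusted p = 0.000129). The cationic amino acid carriers Slc7a1 and Slc7a3 rose too. Slc7a1 changed by 0.93 (adjusted p = 0.0015) and 0.75 (adjusted p = 0.0051), and Slc7a3 by 1.01 (adjusted p = 0.00653) and 0.77 (adjusted p = 0.0308), in WT and KO respectively. Slc7a11, the cystine carrier that feeds glutathione synthesis, was at 197 and 119 CPM in WT control, 51.6 and 65.9 in WT TGF-β, 137 and 114 in KO control and 43.7 and 66.9 in KO TGF-β, with log2 fold changes of -1.43 (SE 0.27, adjusted p = 0.00605) and -1.18 (adjusted p = 0.0157). In KO its call was lost without control replicate 1 (adjusted p = 0.072) or TGF-β replicate 1 (0.0883). That of Slc7a5 was lost there without control replicate 2 (0.0925) or TGF-β replicate 2 (0.0966). Slc7a3 lost its call without any of the 4 KO libraries (0.068 to 0.2), without WT TGF-β replicate 2 (0.0568) and with DESeq2 in both genotypes (0.0593 in WT and 0.227 in KO).

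The list of tRNA charging held 12 synthetases and the tRNA export factor Xpot. Gars, the glycyl-tRNA synthetase, was past the threshold, 1 of 13 in each genotype, with log2 fold changes of 0.73 (SE 0.10, adjusted p = 0.00138) and 0.64 (adjusted p = 0.00296). Without regard to the fold limit, 11 of 13 were higher in WT and 10 of 13 in KO at an adjusted p under 0.05, where 18.6% and 16.6% of all genes tested were, and the median log2 fold change was 0.42 and 0.36. Both counts include Xpot, Sars did not pass in either genotype (adjusted p 0.173 and 0.232), and Wars had log2 fold changes of -0.06 and -0.04. For WT, 4 genes were past both limits when TGF-β replicate 1 was left out, with Eprs (0.62), Iars (0.62) and Tars (0.67) added, and 2 when control replicate 1 was, with Iars (0.62). In KO it was 3 without control replicate 1, with Iars (0.61) and Tars (0.62). The call of Gars was lost on the fold limit without WT TGF-β replicate 2 (0.60) and, in KO, without control replicate 2 (0.54) or TGF-β replicate 2 (0.57).

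Around Shmt2 and Mthfd2, 13 of 14 listed genes of folate metabolism and glycine cleavage were tested. Aldh1l2, the mitochondrial enzyme that oxidises formyl folate, was the clearest, at 12.1 and 12.9 CPM in WT control, 32.7 and 46.7 in WT TGF-β, 13.2 and 10.7 in KO control and 32.0 and 31.8 in KO TGF-β. It rose by 1.66 (SE 0.17, adjusted p = 0.000566) and 1.42 (adjusted p = 0.00137) on the log2 scale. Tyms, thymidylate synthase, was past the threshold in KO (0.71, adjusted p = 0.00173) and under the fold limit in WT (0.54, adjusted p = 0.00392), and its interaction was not past the threshold. The list had 1 of 13 genes upwards in WT and 2 in KO, where 7.72% and 6.61% of all genes tested were. In WT that is near the share of all genes. None was downwards, where 5.65% and 4.93% of all genes were, and the list medians were 0.08 and 0.20. Without WT control replicate 1 or WT TGF-β replicate 1, Mthfd1l was past the threshold too (0.67 and 0.66), which makes 2 in WT. The cytosolic counterpart Aldh1l1, named after its values were seen and itself used as an astrocyte marker, had log2 fold changes of -0.36 (adjusted p = 0.00358) and -0.28 (adjusted p = 0.0124).

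Of 7 genes of proline synthesis and breakdown, 2 rose past the threshold in each genotype, where 7.72% of all genes tested did in WT and 6.61% in KO. Pycr1, which closes the last step, was at 6.77 and 9.37 CPM in WT control, 21.0 and 25.0 in WT TGF-β, 7.34 and 7.28 in KO control and 19 and 18.5 in KO TGF-β, with log2 fold changes of 1.5 (SE 0.16, adjusted p = 0.000542) and 1.36 (adjusted p = 0.00107). Aldh18a1, the enzyme that starts the route from glutamate, rose by 0.92 (adjusted p = 0.000382) and 0.85 (adjusted p = 0.000656). Prodh, which breaks proline down, was past the threshold downwards in KO (-0.82, SE 0.22, adjusted p = 0.0274) and not in WT (-0.39, adjusted p = 0.204), and its call was lost without any of the 4 KO libraries (adjusted p 0.0606 to 0.155) and with DESeq2 (0.115). Downwards the list had 0 genes past the threshold in WT and 1 in KO, where 5.65% and 4.93% of all genes tested were. The list medians were -0.02 and -0.10.

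Upstream of ATF4, none of 7 genes of eIF2, its kinases and its phosphatase was past the threshold in either genotype by edgeR. At an adjusted p under 0.05, 3 in WT and 4 in KO were higher, where 18.6% and 16.6% of all genes tested were. The median log2 fold change of the list was 0.22 in both genotypes. Eif2ak3, the kinase PERK of the endoplasmic reticulum, named after its values were seen, stood just under the fold limit with 0.59 (adjusted p = 0.000882) and 0.50 (adjusted p = 0.00229). Leaving out WT control replicate 1 (0.67) or WT TGF-β replicate 1 (0.64) took it past the threshold in WT, which makes 1 of 7. Of 11 chaperones and factors of the ATF6 and XBP1 branches of the unfolded protein response, 4 were past the threshold upwards in WT and 3 in KO, against 7.72% and 6.61% of all genes tested, and none downwards, with medians of 0.47 and 0.38. Dnajb9, Atf6 and Sdf2l1 were past no limit used, with log2 fold changes of 0.11, 0.13 and 0.38 in WT (adjusted p 0.0602 to 0.188). Hyou1, a large chaperone, rose by 1.13 (SE 0.09, adjusted p = 0.000242) and 1.06 (adjusted p = 0.000373), and Hspa5, the chaperone BiP, by 0.71 (adjusted p = 0.000725) and 0.74 (adjusted p = 0.000753). Hsp90b1 (0.67, adjusted p = 0.00191) and Creld2 (0.61, adjusted p = 0.000356) were past the threshold in WT, with 0.57 and 0.55 in KO. Xbp1 was past it in KO (0.65, adjusted p = 0.000439), with 0.56 in WT. Hsp90b1 and Creld2 dropped under the fold limit without WT TGF-β replicate 2 (0.54 and 0.56), and Creld2 also without WT control replicate 2 (0.57). Without WT control replicate 1 Xbp1 was past the threshold in WT (0.61), and without KO control replicate 1 Hsp90b1 was past it in KO (0.63). Of the FGF21 receptors, 3 of 4 were tested and none was past the threshold, with log2 fold changes from -0.19 to 0.22.

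**Figure D3:**
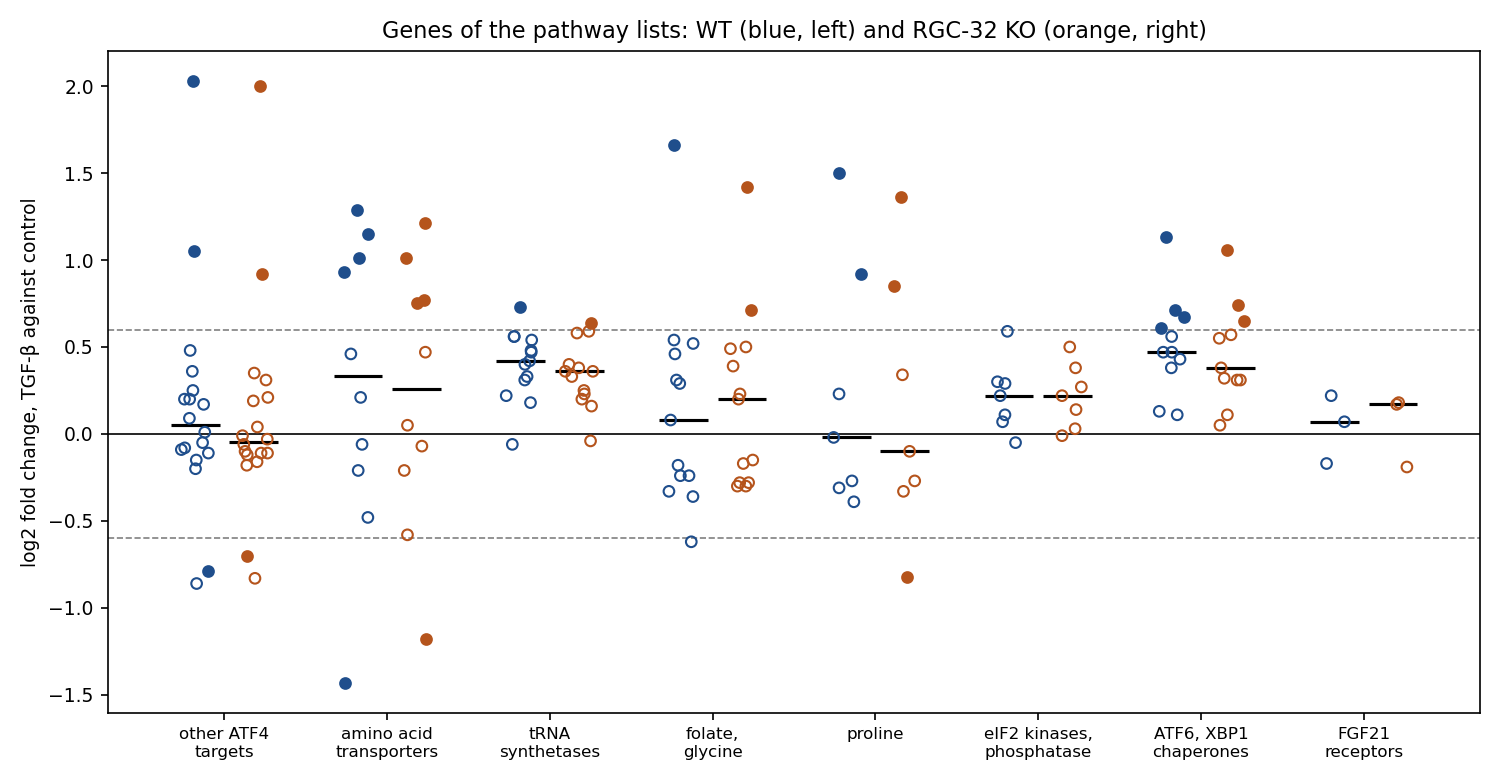
Log2 fold change after TGF-β (y axis) of each tested gene of the 8 pathway lists (x axis), in WT and KO, with filled points past the threshold, open points not past it, a bar at the list median and dashed lines at the fold limit of 0.6 in each direction. The synthetase and chaperone medians sit highest (0.42 and 0.47 in WT), and Slc7a11 lies lowest at -1.43.

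Over all lists, 82 genes were tested, with medians of 0.23 in WT and 0.22 in KO. Of these, 14 were past the threshold upwards and 2 downwards in WT, where 7.72% and 5.65% of all genes tested were. In KO it was 14 upwards and 3 downwards, against 6.61% and 4.93% of all genes tested. The downward counts did not exceed the share of all genes. In the interaction 0 of 82 were past the threshold in edgeR, DESeq2 or limma-voom, and 0 had an unadjusted p under 0.05 in edgeR. The downward count in WT was 1 without WT control replicate 1 or either WT TGF-β replicate, each time by the loss of Atf3. In KO the calls of Atf3, Prodh and Slc7a11 were all lost without TGF-β replicate 1, which left 0, and without control replicate 1, which left 1, the glutamine carrier Slc38a1 (log2 fold change -0.72), newly past the threshold. Without control replicate 2 it was 1, Slc7a11.

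The typical course of the set over the 8 libraries was taken as the median of the 10 centred log2 CPM values, Atf4 included. Among the members it lay closest to Atf4, with a root mean square distance of 0.0692 on the log2 scale, and farthest from Fgf21 (1.78) and Psat1 (0.608). Phgdh (0.343) and Psph (0.364) also stood off it. The log2 fold change of Atf4 in WT, 0.47, lies mid-way in the order of the 10, between Shmt2 (0.36) and Mthfd2 (0.87). Its closeness to the course thus follows largely from how the course was built, and nothing is read from it. Among the genes outside the set, Map3k14 (0.0341), Tes (0.0528), Dut (0.0532), Zswim6 (0.0533) and Csrnp2 (0.0541) had the smallest distances to that course, over 8 libraries. Their log2 fold changes after TGF-β were 0.50 to 0.64 in WT and 0.40 to 0.53 in KO.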

How the data were processed

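Per the labels, reads of unstranded libraries were aligned with STAR to mm10. The authors deposited whole-number read counts per gene, not normalized, for 13937 genes, and FPKM values for 18644 genes ascribed to Cufflinks. The program that counted the reads and its annotation are not given in the sources used here. The authors' own fold changes and p-values were deposited too and were not used. The tests used edgeR 4.0.16 under R 4.3.3: filterByExpr, TMM scaling and 1 quasi-likelihood model of the 4 groups over 8 libraries without a block. DESeq2 1.42.0, limma 3.58.1 and other settings were alternatives, and the code was tested on simulated data. P-values are two-sided and adjusted over 13509 genes by the Benjamini-Hochberg method, SE is derived from the test statistic, and replicates of a group differed by more than counting noise (chi-square per degree of freedom 6.26 to 10.4). Exon lengths and positions came from GENCODE M21 (GRCm38). The members, the pathway lists and the tests were chosen with earlier results of these data known. Named are all members and, of each pathway list, every gene past the threshold in either genotype (with more than 5 such genes, which no list had, the 3 largest rises and falls), and the 5 genes closest to the course of the set. Any other gene was named after its values were seen, as for Ddit3, Aldh1l1, Eif2ak3, genes with the motif, overlapping genes, and genes past no limit or called without 1 library.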

Additional observations from a re-analysis of the deposited data

How the results depend on the processing

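KO stands for RGC-32 KO. The deposited FPKM values were identical to all digits between same-numbered libraries for 773 to 873 genes a pair, in 12 pairs, and for 0 genes in the 16 other pairs, which limits what that alternative shows. Its median over all genes lay at -0.10 in WT and -0.11 in KO with pseudocount 1, and at -0.12 and -0.13 with pseudocount 0.1. On FPKM with pseudocount 1, members past the threshold upwards were 3 in WT and 1 in KO, and pathway genes 9 and 7. With pseudocount 0.1, members upwards in KO were 1, pathway genes there 9 upwards and 5 downwards. With at least 10 counts required in every library Fgf21 was not tested, and 4 and 2 members were upwards. With upper quartile normalization Mthfd2 fell under the fold limit in KO (0.54), which left 2 members upwards there. With edgeR on the 4 libraries of a comparison, 1 pathway gene was downwards in WT. Of all calls over the table, 57.8% were upwards in WT and 57.3% in KO, against 44.8% and 45.5% with upper quartile normalization, 47.0% and 44.8% on FPKM with pseudocount 1 and 38.7% and 37.2% with pseudocount 0.1. Leaving out 1 library at a time, members upwards were 3 to 6 in WT and 2 to 4 in KO, members downwards 0 to 1 in each, pathway genes upwards 10 to 20 and 11 to 16, and pathway genes downwards 1 to 2 and 0 to 2. The direction of every member called after TGF-β was the same in each alternative, and no member was past the threshold between genotypes or in the interaction in any. Interaction values changed sign for Fgf21 with limma-voom (0.78) and for Psph on FPKM (-0.09 and -0.10), and leaving out 1 library they ran from -0.15 to 0.15 for Atf4, -1.42 to 4.95 for Fgf21, -0.32 to 0.03 for Asns, -0.09 to 0.05 for Psat1 and -0.03 to 0.11 for Psph. The Fgf21 range includes the fit without KO control replicate 1, which leaves a control library with 0 counts, so its width is not read. The cause of the changes between settings was not tested.

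The labels number the replicates alike in each group but name no shared culture or litter, and with 2 a group the numbers were not taken as pairs. With the replicate number as a block, all members kept their side of the threshold (5 upwards and 1 downwards in WT, 3 and 1 in KO), Slc7a3 and Prodh lost their calls in KO, and 1616 and 1369 genes of the whole table were past the threshold in WT and KO, against 1806 and 1559 without it. Deviations of same-numbered control and TGF-β libraries correlated at -0.34 in WT and -0.35 in KO, and those of same-numbered WT and KO libraries at 0.49 in control and 0.25 after TGF-β, so for the TGF-β comparisons a crossed pairing was added after seeing the data, with 2105 and 1852 genes past the threshold and 4 pathway genes downwards in WT.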
